A study of Sus scrofa with 19 samples.

Results

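The genes of the mitochondrial respiratory chain and of ATP synthase were examined in the longissimus dorsi (LD) muscle of 19 Duroc pigs. Members were chosen by name: every gene whose symbol starts with NDUF, UQCR, ATP5 or COX followed by 4 to 8, together with SDHA, SDHB, SDHC, SDHD, CYC1 and CYCS, where a probe set of the Affymetrix porcine array carries that symbol alone. This gave 64 genes, measured by 81 of the 23999 probe sets tested, out of 6765 genes that the annotation names in this way. Each gene is represented by its brightest probe set, the one with the highest mean over the 19 arrays. Of the 64 genes, 32 encode subunits of complex I, 4 of complex II, 2 of complex III, 8 of complex IV and 13 of complex V (ATP synthase). The other 5 are the electron carrier CYCS (cytochrome c), the complex I assembly factors NDUFAF1, NDUFAF2 and NDUFAF3, and ATP5S, which carries the prefix but is not a subunit. CYC1, genes whose symbols start with COX4, COX6A2 and the subunits encoded in mitochondrial DNA were not among the probe sets with a single such name and were not analysed here. NDUFA4, first described in complex I, was counted with complex IV.

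All pigs were castrated males of a commercial Duroc line, from a population made up of half-sib families, and were slaughtered at 190 days of age. From a larger population ranked on traits of fat deposition and composition in carcass, plasma and muscle, 10 pigs at the upper end form the LD HIGH group and 9 pigs at the lower end form the LD LOW group. Each array holds the RNA of 1 pig, so the replicates are separate animals, named here by group and replicate number. No treatment, genotype or batch distinguishes the groups in the labels, and the muscle is a mixture of fibres and other cells.

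The respiratory chain passes electrons from food along a series of protein complexes in the inner mitochondrial membrane. Complex I takes electrons from NADH and complex II, which is also an enzyme of the tricarboxylic acid cycle, takes them from succinate. Complex III hands them to cytochrome c, complex IV gives them to oxygen, and complex V uses the proton gradient built up by complexes I, III and IV to make ATP. Oxidative muscle fibres are rich in mitochondria, whereas the LD of the pig is a mostly glycolytic muscle. In a whole tissue, fewer cells of a type and less RNA per cell cannot be told apart.

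All 64 genes lay above every one of 17 tag control probe sets, which match no pig transcript, on all 19 arrays. The tag controls had a mean log2 signal of 2.11, and the median signal of the 64 genes was 11.68. All 5 defining markers of the skeletal muscle fibre that the annotation names were above the tag controls on all arrays, with a summed level of 17.5 to 17.6 on the log2 scale in both groups. Array medians ran from 3.43 to 3.59, and the lowest correlation between 2 arrays was 0.970. The highest array median (3.59) was that of LD HIGH replicate 4. Controls for actin, EF1A and GAPDH are probed at both ends of the transcript, and an excess of 3' over 5' signal can mark degraded RNA. It was largest in LD LOW replicate 1 (1.61 on the log2 scale, against 0.77 to 1.20 in the other pigs). LD HIGH replicate 10 had the lowest signal of its group for 31 of the 64 genes. The main counts and correlations, and the genes with the smallest p-values, are therefore also given without these 3 pigs. Replicate 10 of LD HIGH was picked by the signals of the 64 genes themselves, so its removal also takes away an end of their range.

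The signals of the 5 complexes covered different ranges. Between probe sets a signal depends on the probes as well as on the transcript, so these levels give no order of abundance between genes. Complex I spanned log2 signals from 5.69 (NDUFV3) to 13.23 (NDUFB1), with a median of 11.34 over its 32 genes. Complex II had a median of 11.65 over 4 genes, complex IV a median of 12.69 over 8, and complex V a median of 12.58 over 13, from 5.60 (ATP5I) to 13.52 (ATP5B). UQCRB, a subunit of complex III, had the highest signal of the 64 (13.69), and the assembly factor NDUFAF2 the lowest (5.53). Of the 64 genes, 53 had a mean signal of 10 or more.

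The spread between pigs was small for most of the genes. The median SD over the 19 pigs was 0.255 on the log2 scale, against 0.287 over all named genes and 0.263 over the 747 named genes with a mean of 10 or more. By complex the median SD was 0.281 in complex I, 0.263 in complex II, 0.241 in complex III, 0.256 in complex IV and 0.182 in complex V. The steadiest genes were ATP5E, the epsilon subunit of the ATP synthase rotor (SD 0.118), ATP5O, the subunit that joins the stalk to the catalytic head (0.152), and NDUFB4, an accessory subunit of the membrane arm of complex I (0.161). The most variable were NDUFA5 (0.554) and NDUFB3 (0.530), both accessory subunits of complex I, and CYCS (0.475).

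No gene of the respiratory chain or ATP synthase passed the test for a difference between LD HIGH and LD LOW. With limma and Benjamini-Hochberg adjustment over all probe sets, 0 of the 64 genes passed an adjusted p of 0.05, and 0% of the 23999 probe sets did so. At an unadjusted limma p under 0.05 there were 3 of 64 genes, 2 higher and 1 lower in LD HIGH. The share over all probe sets was 3.51%, with 1.87% higher and 1.64% lower, and over all named genes 4.61%. In none of the 64 genes were the groups free of overlap, which was the case for 0.00417% of all probe sets.

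Differences of either sign were about equally frequent. In LD HIGH 30 genes had a higher and 34 a lower mean, with a median difference of -0.016 on the log2 scale. The median over all named genes was -0.001, with 49.4% of them higher, and 41.3% of all probe sets were higher. With a mean signal of 10 or more, 22 of the 53 members (41.5%) were higher, against 54.4% of the 747 named genes. The absolute difference was under 0.25 in 58 of the 64 genes (90.6%), against 85.6% of all named genes. At a mean signal of 10 or more the shares were 96.2% of the members and 89.7% of the named genes. The direction was not firm: leaving out 1 pig at a time moved the count of genes with a higher mean in LD HIGH from 21 (without LD LOW replicate 7 or without LD LOW replicate 9) to 40 (without LD LOW replicate 3). Without LD HIGH replicates 4 and 10 and LD LOW replicate 1 together it was 31.

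**Figure D1:**
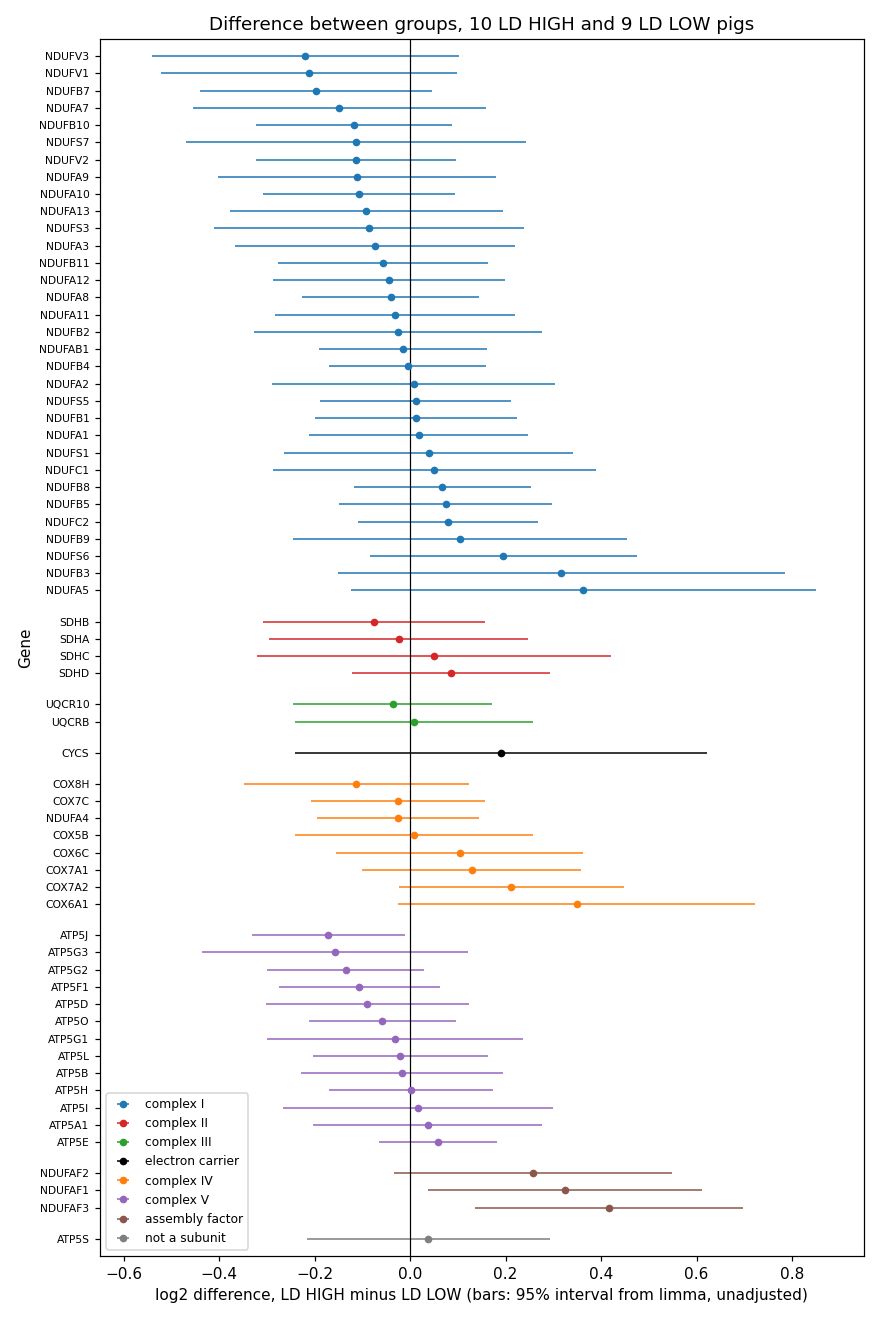
Difference between groups for each of the 64 genes, sorted within complexes. Points give the log2 difference (LD HIGH minus LD LOW, horizontal axis) and bars its unadjusted 95% interval from limma over 10 and 9 pigs; the intervals of NDUFAF3, NDUFAF1 and ATP5J leave out 0, and the adjusted p of every gene was 0.993 or more.

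In complex I, the entry point for electrons from NADH, 13 of 32 genes had a higher and 19 a lower mean in LD HIGH, with a median difference of -0.028 and a range from -0.22 (NDUFV3) to 0.36 (NDUFA5). The smallest unadjusted p-values in the complex belonged to 3 accessory subunits. NDUFB7, of the membrane arm, had signals of 9.95 to 10.62 (median 10.17) in LD HIGH and 9.93 to 10.80 (median 10.51) in LD LOW. The groups overlapped almost over their whole range, although 8 of 10 LD HIGH pigs were below the LD LOW mean. The difference was -0.20 (SE 0.12, unadjusted limma p = 0.107, adjusted p = 0.993).

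NDUFA5, of the matrix arm, ran from 9.21 to 10.93 (median 10.63) in LD HIGH and from 9.30 to 10.92 (median 10.07) in LD LOW. Both groups thus held pigs at either end, and the difference of 0.36 had a 95% interval from -0.12 to 0.85 (unadjusted limma p = 0.136). NDUFS6, a subunit of the matrix arm that is needed for the final steps of its assembly, had signals of 8.60 to 9.66 (median 9.13) in LD HIGH and 8.62 to 9.31 (median 8.93) in LD LOW. Its difference was 0.20 (SE 0.13, unadjusted limma p = 0.161), with 8 of 10 LD HIGH pigs above the LD LOW mean.

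NDUFS3 and NDUFB3 are members of the same complex with very different behaviour. NDUFS3, a core subunit of the matrix arm, ran from 10.69 to 11.58 (median 11.33) in LD HIGH and from 10.64 to 11.93 (median 11.45) in LD LOW, with a difference of -0.086 (95% interval from -0.41 to 0.24). NDUFB3, of the membrane arm, ran from 10.45 to 12.12 (median 11.89) in LD HIGH and from 10.68 to 12.03 (median 11.28) in LD LOW, with a difference of 0.32 (95% interval from -0.15 to 0.79). In NDUFB3 a low set of pigs stood apart within LD HIGH, namely replicates 3 and 4. NDUFB4 was narrow, from 12.25 to 12.52 in LD HIGH and from 12.03 to 12.64 in LD LOW, and its difference of -0.0054 had a 95% interval from -0.17 to 0.16.

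Complex II, succinate dehydrogenase, was measured whole, with 2 of its 4 genes higher and 2 lower in LD HIGH. SDHA, the flavoprotein that oxidises succinate, had signals of 10.95 to 11.56 (median 11.29) in LD HIGH and 10.81 to 11.82 (median 11.27) in LD LOW, and SDHB, the iron-sulphur subunit, 11.92 to 12.79 (median 12.58) and 12.24 to 13.00 (median 12.55). The medians of the 2 groups were nearly the same for both, and the lowest SDHB value by far was that of LD HIGH replicate 10 (11.92). The differences were -0.024 (95% interval from -0.30 to 0.25) for SDHA and -0.076 (from -0.31 to 0.16) for SDHB.

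The membrane anchors of complex II gave differences of similar size. SDHC ran from 9.18 to 10.33 (median 9.90) in LD HIGH and from 9.00 to 10.38 (median 9.94) in LD LOW, the widest spread of the complex (SD 0.391). SDHD ran from 11.74 to 12.40 (median 12.04) in LD HIGH and from 11.57 to 12.23 (median 12.01) in LD LOW. The groups overlapped in both genes, with differences of 0.050 (95% interval from -0.32 to 0.42) and 0.085 (from -0.12 to 0.29).

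Complex III was represented by 2 small subunits only. UQCR10 had signals of 12.19 to 12.95 (median 12.81) in LD HIGH and 12.38 to 13.05 (median 12.86) in LD LOW, and UQCRB 13.12 to 14.07 (median 13.82) and 13.25 to 13.96 (median 13.78). The differences were -0.037 (95% interval from -0.25 to 0.17) and 0.0075 (from -0.24 to 0.26). CYCS, which carries electrons from complex III to complex IV, was far more spread, from 11.63 to 13.10 (median 12.60) in LD HIGH and from 11.45 to 12.75 (median 12.36) in LD LOW. Its difference of 0.19 was smaller than its own SD in either group (0.538 and 0.399, unadjusted limma p = 0.369).

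In complex IV, cytochrome c oxidase, 5 of 8 genes had a higher and 3 a lower mean in LD HIGH, with a median difference of 0.056. COX6A1, the isoform of subunit VIa found in most tissues, had signals of 8.03 to 9.19 (median 9.01) in LD HIGH and 7.86 to 9.04 (median 8.40) in LD LOW. Most LD HIGH pigs were at the upper end, with 7 of 10 above the LD LOW mean, but the groups overlapped from 8.03 to 9.04. The difference was 0.35 (SE 0.18, unadjusted limma p = 0.0657, adjusted p = 0.993).

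The isoforms of subunit VIIa were both present. COX7A2, the form found in most tissues, ran from 10.40 to 10.92 (median 10.61) in LD HIGH and from 9.83 to 10.82 (median 10.35) in LD LOW. COX7A1, the form of heart and skeletal muscle, ran from 11.59 to 12.45 (median 12.10) in LD HIGH and from 11.52 to 12.27 (median 12.03) in LD LOW. Pigs of LD HIGH were more often above the LD LOW mean, 9 of 10 for COX7A2 and 8 of 10 for COX7A1, and the groups overlapped in each. The difference was 0.21 for COX7A2 (SE 0.11, unadjusted limma p = 0.0763) and 0.13 for COX7A1 (SE 0.11, unadjusted limma p = 0.255). Across the 19 pigs the isoforms were weakly correlated (r = 0.165, rho = 0.137).

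COX8H, the heart and muscle form of subunit VIII, had signals of 11.92 to 12.80 (median 12.57) in LD HIGH and 12.22 to 12.75 (median 12.59) in LD LOW. NDUFA4 had signals of 13.17 to 13.59 (median 13.40) in LD HIGH and 13.10 to 13.79 (median 13.41) in LD LOW. Group medians were close in both genes, and the differences were -0.11 (95% interval from -0.35 to 0.12) and -0.026 (from -0.20 to 0.14).

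In complex V 4 of 13 genes had a higher and 9 a lower mean in LD HIGH, with a median difference of -0.033, and the differences ran from -0.17 (ATP5J) to 0.058 (ATP5E). ATP5J, coupling factor 6 of the peripheral stalk, had signals of 11.22 to 11.74 (median 11.57) in LD HIGH and 11.51 to 11.98 (median 11.75) in LD LOW. In this gene 9 of 10 LD HIGH pigs were below the LD LOW mean, and the groups overlapped from 11.51 to 11.74. The difference was -0.17 (SE 0.077, unadjusted limma p = 0.0372, adjusted p = 0.993). Leaving out 1 pig at a time gave unadjusted p-values from 0.0189 to 0.0827 with limma, and 10 of the 19 exceeded 0.05, the highest being without LD LOW replicate 4. Without LD HIGH replicates 4 and 10 and LD LOW replicate 1 the difference was -0.17 with an unadjusted limma p of 0.061, above 0.05. The dim second probe set of ATP5J (mean 3.10) had an r of 0.041 with the first.

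ATP5G2, 1 of 3 genes for the membrane ring subunit c, had signals of 11.53 to 12.06 (median 11.82) in LD HIGH and 11.59 to 12.08 (median 11.998) in LD LOW. ATP5F1, subunit b of the stalk, had signals of 12.83 to 13.42 (median 13.14) in LD HIGH and 13.05 to 13.46 (median 13.25) in LD LOW. LD HIGH pigs were more often on the low side (8 and 7 of 10 below the LD LOW mean). The differences were -0.14 (SE 0.079, unadjusted limma p = 0.102) and -0.11 (SE 0.081, unadjusted limma p = 0.202). ATP5E and ATP5O differed by 0.058 (95% interval from -0.065 to 0.18) and -0.058 (from -0.21 to 0.095). These 2 intervals were the narrowest of the 64.

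Assembly factors of complex I help to build the complex but are not part of it. The 3 that the naming rule took in, NDUFAF1, NDUFAF2 and NDUFAF3, had a higher mean in LD HIGH. NDUFAF3, which acts early on the matrix arm, had signals of 8.17 to 9.18 (median 8.47) in LD HIGH and 7.70 to 8.53 (median 8.15) in LD LOW. All 10 LD HIGH pigs were above the LD LOW mean, and the groups overlapped from 8.17 to 8.53. The difference was 0.42 (1.33-fold, SE 0.13), with an unadjusted limma p of 0.0058, the smallest of the 64 genes, and an adjusted p of 0.993. Without any 1 pig the unadjusted limma p stayed between 0.0025 and 0.0135, and without LD HIGH replicates 4 and 10 and LD LOW replicate 1 the difference was 0.42 and that p 0.00965.

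NDUFAF1, which acts on the membrane arm, had signals of 6.53 to 7.41 (median 7.07) in LD HIGH and 6.28 to 7.09 (median 6.77) in LD LOW. The difference was 0.32 (1.25-fold, SE 0.14, unadjusted limma p = 0.0287), and 8 of 10 LD HIGH pigs were above the LD LOW mean. Leaving out 1 pig at a time gave unadjusted limma p-values from 0.0105 to 0.0611, with 5 of the 19 over 0.05 and the highest without LD LOW replicate 1. Without the 3 pigs named above the difference was 0.34 and the unadjusted limma p 0.0259. Its second probe set followed the first across the pigs (r = 0.870) and differed by 0.36 (SE 0.21, unadjusted limma p = 0.102). NDUFAF2, a chaperone of late assembly, had signals of 5.36 to 5.93 (median 5.64) in LD HIGH and 4.60 to 5.91 (median 5.44) in LD LOW. Its difference was 0.26 (SE 0.14, unadjusted limma p = 0.0812). The dim second probe set of NDUFAF2 (mean 2.82) ran against the first (r = -0.360) and differed by -0.0063, and NDUFAF3 has a single probe set. All 3 are among the dimmer members, and their mean correlation with the other genes was 0.085.

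**Figure D2:**
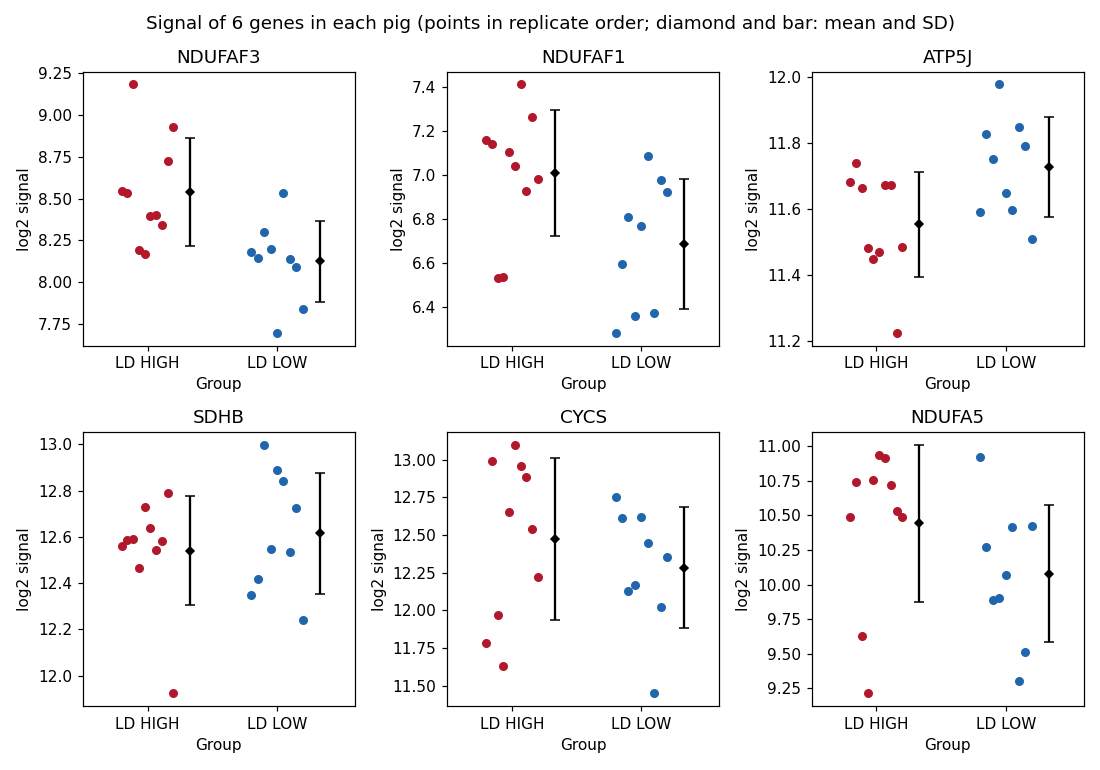
Log2 signal (vertical axis) of 6 genes in each pig of LD HIGH and LD LOW, with the mean and SD of the group as a diamond and bar. NDUFAF3, NDUFAF1 and ATP5J had the 3 smallest p-values, SDHB shows LD HIGH replicate 10 far below the other pigs of its group, and CYCS and NDUFA5 spread over more than 1 log2 unit in both groups.

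The genes varied together from pig to pig. Over the 2016 pairs of the 64 genes, the mean Pearson correlation across the 19 pigs was 0.318, against 0.017 over pairs of all 6765 named genes and 0.015 over those with a mean of 10 or more. Of the pairs, 81.9% had a positive r and 33.8% an r above 0.5, while 4.02% were below -0.3. The genes share arrays and a processing, and pigs are the only replicates, so these values describe this set of 19 pigs. The mean was 0.332 after removal of the group means and 0.288 without LD HIGH replicates 4 and 10 and LD LOW replicate 1.

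Mean correlations within a complex were close to those between complexes, apart from complex III. The mean r within complex I was 0.375 and that of its genes with all the others 0.320. The corresponding values were 0.383 and 0.357 for complex II, 0.183 and 0.342 for complex III, 0.302 and 0.312 for complex IV, and 0.326 and 0.318 for complex V. In complex III this is the single pair UQCR10 and UQCRB. In complex II SDHA and SDHB varied together (r = 0.798, rho = 0.707), whereas r was between 0.154 and 0.396 for the 5 pairs that include SDHC or SDHD.

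Some genes followed the whole set and others did not. The mean correlation with the rest of the genes was highest for SDHB (0.52), NDUFS3 (0.51) and UQCR10 (0.49), which belong to 3 different complexes. It was lowest for NDUFA5 (-0.012), NDUFAF3 (-0.0062) and ATP5J (0.035). Among the genes for subunit c, ATP5G1 and ATP5G3 were closely correlated (r = 0.875, rho = 0.923), while ATP5G2 correlated with neither (r = 0.128 and 0.078). These pairs, and those in the next paragraphs, were picked after the correlations had been seen.

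**Figure D3:**
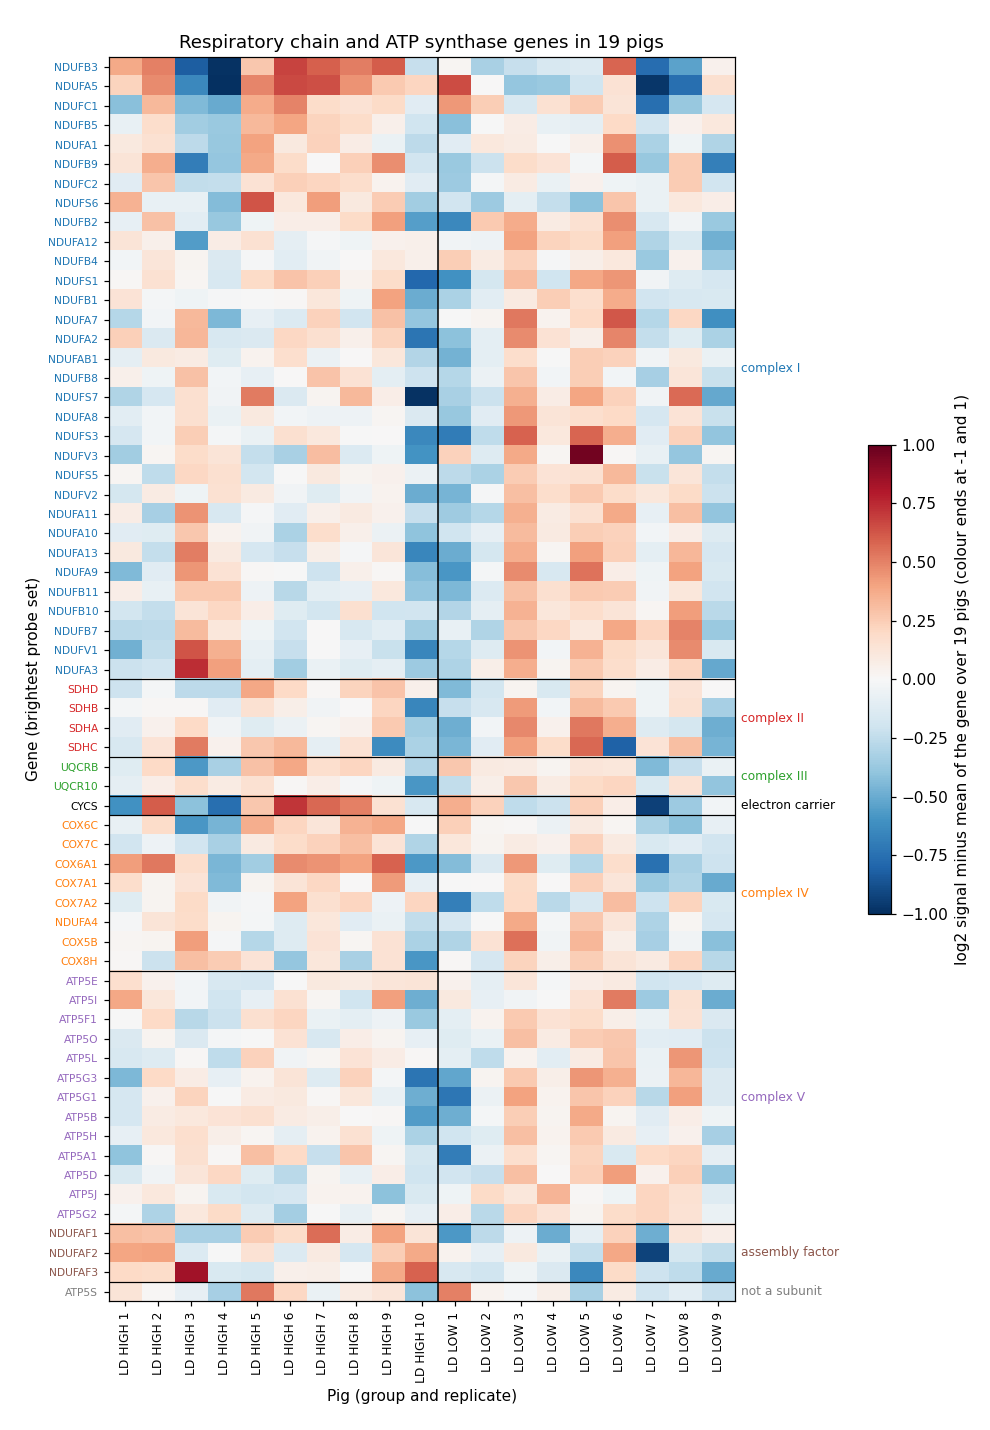
Log2 signal of the 64 genes (rows, by complex and within it by correlation with the second component) in 19 pigs (columns), each as the deviation from the mean of the gene. Most rows are blue in LD HIGH replicate 10 and LD LOW replicates 1 and 9 and red in LD LOW replicates 3, 5 and 6, and the upper rows of complex I, with UQCRB, CYCS and COX6C, are blue in LD HIGH replicates 3 and 4 and LD LOW replicate 7.

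A score was formed for each pig as the mean deviation of the genes from their 19-pig means, on the log2 scale. In LD HIGH it ran from -0.28 to 0.10 (median 0.058) and in LD LOW from -0.23 to 0.22 (median 0.010). The lowest pig was LD HIGH replicate 10 (-0.28), followed by LD LOW replicates 9 (-0.23), 1 (-0.21) and 7 (-0.19). The highest were LD LOW replicates 3 (0.22), 6 (0.21) and 5 (0.17), so LD LOW held 3 of the 4 lowest pigs and the 3 highest. The pigs spanned 0.50 log2 units, or 1.42-fold, while the group means differed by 0.011. The SD of the score was 0.124 in LD HIGH, 0.076 without its replicate 10, and 0.181 in LD LOW; the difference in spread was not tested.

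The scores of the 5 complexes were positively correlated in every pair. Over the 19 pigs Pearson's r was highest between complexes I and V (0.924, rho = 0.832) and lowest between complexes II and III (0.574, rho = 0.602). Spearman's rho was highest between complexes I and IV (0.853) and lowest between complexes II and IV (0.544). Without the 2 pigs farthest from the median of the score on the x axis, r ran from 0.489 (complexes III and V) to 0.876 (I and V). Within LD HIGH r was between 0.642 and 0.925 and within LD LOW between 0.491 and 0.956. LD HIGH replicate 10 was the lowest of its group in all 5 scores, from -0.24 in complex IV to -0.44 in complex III. The score of complex II had the widest range, 0.81 log2 units, and that of complex V the narrowest, 0.48.

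**Figure D4:**
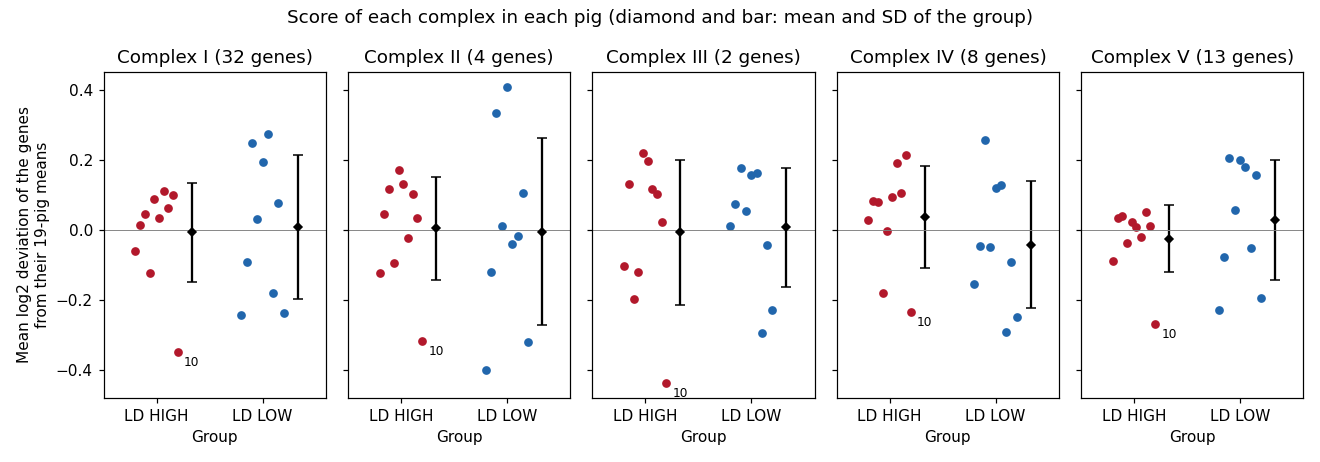
Score of each complex (mean log2 deviation of its genes, vertical axis) in each of 10 LD HIGH and 9 LD LOW pigs, with the mean and SD of the group as a diamond and bar; LD HIGH replicate 10 is marked. The group means differ by at most 0.080, far less than the spread between pigs.

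The variation had more than 1 direction. In a principal component analysis of the 64 genes, each scaled to unit variance, the first component held 40.0% of the variance and the second 20.9%, followed by 8.58% for the third. The first followed the shared score: 29 genes correlated with it above 0.7, led by NDUFS3 (r = 0.969), SDHB (0.918), UQCR10 (0.915), ATP5H (0.907) and NDUFA8 (0.904). The second was carried by NDUFB3 (r = 0.951), NDUFA5 (0.920), COX6C (0.902), UQCRB (0.862), CYCS (0.829) and NDUFC1 (0.817), and 23 of the 64 genes correlated more closely with it than with the first. At its other end were ATP5G2 (-0.654), NDUFA3 (-0.622) and NDUFV1 (-0.605).

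The second component thus cut across the complexes. UQCRB varied with CYCS (r = 0.852, rho = 0.918) rather than with its partner UQCR10 (r = 0.183, rho = 0.058), and UQCR10 varied with SDHB of complex II (r = 0.864, rho = 0.742). Within complex I, NDUFB3 and NDUFA5 varied together (r = 0.877, rho = 0.816), whereas NDUFA5 ran against NDUFA3 (r = -0.716) and NDUFV1 (r = -0.687). The closest pairs of all were CYCS with NDUFC1 (r = 0.920), ATP5G1 with NDUFS3 (0.909) and NDUFA13 with NDUFB11 (0.906).

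The low end of this component was held by few pigs. LD HIGH replicate 4 (-6.90), LD HIGH replicate 3 (-6.33) and LD LOW replicate 7 (-6.20) were the lowest, next to -3.62 in LD LOW replicate 8. In the same order their array medians were 3.59, 3.51 and 3.52. LD LOW replicate 5 had an array median of 3.56 and was at -0.93 on the component. The array weights of the 3 lowest pigs, low where an array departs from the fit, were 0.141, 0.392 and 1.07, where the 19 arrays had 0.141 to 2.48. No repeat of the component left out all 3 pigs. NDUFB3 had signals of 10.45, 10.62 and 10.68 in these 3 pigs and 10.90 to 12.12 in the rest. UQCRB had 13.12 to 13.36 in the 3 pigs and 13.40 to 14.07 in the rest. Of the 6 genes with the highest positive r to the component, the 3 pigs were also apart from the rest in NDUFC1 and overlapped with them in NDUFA5, COX6C and CYCS. In NDUFA5, LD HIGH replicate 3 had 9.63 where the lowest of the rest had 9.52. These genes define the component, so their values in its extreme pigs are a description only. The reverse held for NDUFA3, with 11.87 and 12.20 in the 2 LD HIGH pigs and 10.95 to 11.83 in the rest, while LD LOW replicate 7 (11.54) was within that range. The component was above 0 in 7 of 10 LD HIGH and 3 of 9 LD LOW pigs. Left without LD HIGH replicate 4, it held 18.9% of the variance with nearly the same loadings (r = 0.991 over the 64 genes), and with the array medians removed 21.4% (r = 0.988). Without LD HIGH replicates 4 and 10 and LD LOW replicate 1, the first component held 36.8% (r = 0.898 for the loadings) and the second 22.9% (r = 0.988).

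**Figure D5:**
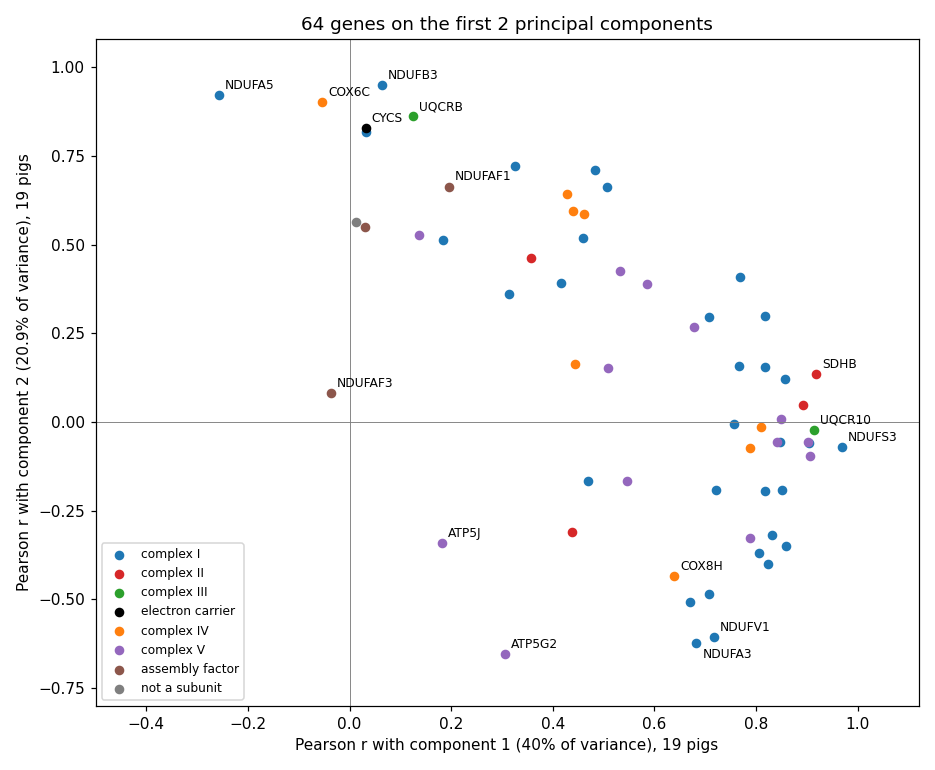
Correlation of each of the 64 genes, coloured by complex, with the first (horizontal axis) and second (vertical axis) principal component over 19 pigs. Genes of complexes I to V lie along the right side, led by NDUFS3 (0.969), and a smaller set from complexes I, III and IV with CYCS lies at the top, led by NDUFB3 (0.951).

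Technical and cellular measures moved with these patterns. The shared score was negatively correlated with the excess of 3' over 5' control signal (r = -0.488, rho = -0.525, and -0.253 without the 2 most extreme pigs), and the second component with the array median (r = -0.634, rho = -0.488). The second component was positively correlated with the score of the haemoglobin genes of blood cells (r = 0.714, rho = 0.761), 2 of whose 3 named genes were above the tag controls on all arrays and whose summed level was 6.44 to 7.60 in LD HIGH and 6.72 to 7.82 in LD LOW. Without the 2 most extreme pigs, r with the haemoglobin genes was 0.730. The score was carried by HBB, a beta globin (r = 0.760 with the component), while HBM (-0.205) and HBE1 (-0.367, above the tag controls on 0 arrays) had the opposite sign. For the other cell type scores, r with the component was -0.520 (endothelial), -0.417 (smooth muscle), -0.383 (macrophage), -0.292 (fast fibre), -0.257 (slow fibre), -0.116 (defining fibre markers) and 0.182 (adipocyte). DLD of the tricarboxylic acid cycle (0.869) and MRPL33 of the mitochondrial ribosome (0.856) were closer to the component than HBB. With the 3' minus 5' signal as a covariate in limma, 0 of the 64 genes passed the adjusted threshold and 3 had an unadjusted p under 0.05. That fit concerns the group difference and not the shared score. The second component was kept with the array medians removed, as given above. Such centring only takes 1 value from all genes of an array, and the part of array quality in either pattern was not tested. The part of blood cells or other cells in the second component was not tested.

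The shared score was also positively correlated with that of the slow fibre markers (r = 0.575, rho = 0.404, and 0.346 without 2 pigs, with 0.420 within LD HIGH and 0.772 within LD LOW), all 8 of which were above the tag controls, with a summed level of 16.7 to 17.1 in LD HIGH and 16.7 to 17.3 in LD LOW. Of the slow fibre markers 1 had a higher and 7 a lower mean in LD HIGH, with a median difference of -0.091. For the fast fibre markers r was 0.360 (rho = 0.202, and 0.134 without 2 pigs), over 6 genes with a summed level of 17.6 to 17.8 and 17.7 to 17.9. Of these 2 were higher and 4 lower in LD HIGH. For the adipocyte markers r was 0.486 (rho = 0.463, and 0.394 without 2 pigs, with 0.718 within LD HIGH and 0.404 within LD LOW). Of these 9 genes 6 were above the tag controls on all arrays, 8 had a higher mean in LD HIGH, and the summed level was 11.6 to 13.2 in LD HIGH and 11.3 to 12.5 in LD LOW. Their median difference was 0.42. At an unadjusted limma p under 0.05 there were 2 of them, FABP4 (0.58) and ADIPOQ (1.39), where the share of all named genes was 4.61%. The adjusted p of both was 0.993. The part of fibre type and fat cells in the shared score was not tested.

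A second look at the same transcripts was given by the 17 further probe sets of 14 genes. Their correlation with the brightest probe set of the gene had a median of 0.179 and ran from -0.470 (NDUFS6) to 0.917 (NDUFS3), with 6 of 17 above 0.5. Among the brighter of these, r was 0.811 (rho = 0.761) for NDUFB3 (mean signal 11.32) and 0.650 (rho = 0.532) for SDHA (10.43). It was 0.656, with a lower rho of 0.314, for another probe set of NDUFS3 (10.54). The group difference of the latter 2 had the opposite sign to the brightest probe set, 0.033 against -0.024 for SDHA and 0.11 against -0.086 for NDUFS3. For SDHB the second probe set (mean 7.99) ran against the first (r = -0.312) and differed by 0.40 between the groups (SE 0.21, unadjusted limma p = 0.0754), where the first differed by -0.076. The direction of the group difference was the same in 9 of 17, and the second probe set of ATP5I was above the tag controls on 0 arrays.

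Other genes that serve the same machinery showed no call either: with limma, 0 of the named genes in each list passed the adjusted threshold. At an unadjusted limma p under 0.05 there were 7 in all, where the share was 3.51% of all probe sets and 4.61% of named genes. They were 5 of 58 genes of the mitochondrial ribosome, 1 of 13 assembly factors and 1 of 12 genes for ATP export and membrane proteins. There were 0 of 13 genes of the tricarboxylic acid cycle and 0 of 8 regulators. The mitochondrial ribosome, which makes the subunits encoded in mitochondrial DNA, was measured by 58 genes, of which 45 had a higher mean in LD HIGH (49.4% of all named genes did), with a median difference of 0.10 and 5 genes at an unadjusted p under 0.05, all higher. Without LD HIGH replicates 4 and 10 and LD LOW replicate 1 it was 43 of 58. MRPL1 had signals of 7.91 to 8.82 (median 8.60) in LD HIGH and 7.60 to 8.502 (median 8.14) in LD LOW, with a difference of 0.42 (SE 0.14, unadjusted limma p = 0.007). MRPL10 and MRPL4 differed by 0.62 (SE 0.24) and 0.43 (SE 0.16). The groups overlapped in all 3 of these ribosomal proteins. The shared score of the respiratory genes correlated with that of the mitochondrial ribosome at r = 0.461 (rho = 0.400), with r = 0.119 within LD HIGH and 0.636 within LD LOW.

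The enzymes of the tricarboxylic acid cycle followed the respiratory genes more closely than any of the other lists examined. Over the 19 pigs the score of 13 of these enzymes correlated with the shared score at r = 0.852 (rho = 0.865), and at 0.836 without 2 pigs, 0.904 within LD HIGH and 0.857 within LD LOW. Between the groups 5 were higher and 8 lower in LD HIGH, with a median of -0.044. IDH3G, OGDH and IDH2, which encode dehydrogenases of the mitochondrial matrix, had differences of -0.26 (SE 0.14), -0.22 (SE 0.14) and -0.17 (SE 0.11).

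Of 8 regulators of mitochondrial biogenesis 5 had a higher and 3 a lower mean in LD HIGH, and their score did not follow that of the respiratory genes (r = 0.127, rho = 0.023). That score averages opposite signs: r with the respiratory genes was 0.614 (rho = 0.472) for SIRT3 and -0.589 (rho = -0.514) for YY1. It was between -0.199 (PPARD) and 0.215 (PPARGC1A) for the rest, of which PPARA was above the tag controls on 0 arrays. PPARGC1A, a coactivator that drives mitochondrial biogenesis, had signals of 7.65 to 11.93 (median 10.51) in LD HIGH and 8.55 to 11.18 (median 9.15) in LD LOW. It was more variable (SD 1.29) than any of the 64 genes, and its difference of 0.68 had an SE of 0.55 (unadjusted limma p = 0.228). SIRT3, a mitochondrial deacetylase, differed by -0.15 (SE 0.17) and PPRC1, a coactivator related to PPARGC1A, by 0.16 (SE 0.20).

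Assembly factors outside the naming rule numbered 13, with 6 higher and 7 lower in LD HIGH. LYRM7, a chaperone for the iron-sulphur protein of complex III, had signals of 4.10 to 4.75 (median 4.39) in LD HIGH and 3.89 to 4.38 (median 4.11) in LD LOW. Its difference of 0.32 (SE 0.097) gave an unadjusted limma p of 0.0039 and an adjusted p of 0.993. BCS1L and UQCC, which also serve complex III, differed by 0.30 (SE 0.18) and 0.24 (SE 0.15). Factors of complex I in this list had no common direction: ACAD9 and FOXRED1 differed by 0.097 and 0.067, TMEM126B and ECSIT by -0.032 and -0.0046.

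Of 12 genes for ATP export and proteins of the mitochondrial membranes, 7 were higher and 5 lower. SLC25A5, which exchanges ADP for ATP across the inner membrane, had signals of 6.21 to 7.67 (median 6.94) in LD HIGH and 5.47 to 6.85 (median 6.20) in LD LOW, a difference of 0.73 (SE 0.22, unadjusted limma p = 0.0031, adjusted p = 0.993). UCP3, an uncoupling protein of muscle, had the reverse sign, with 8.12 to 10.85 (median 9.24) in LD HIGH and 9.17 to 10.54 (median 9.72) in LD LOW and a difference of -0.63 (SE 0.32, unadjusted limma p = 0.0633). CKMT2, the mitochondrial creatine kinase of muscle, differed by 0.17 (SE 0.11). The groups overlapped in each of these genes.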

How the data were processed

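The values are log2 signals per probe set that the authors made with GCRMA (a method named in the submitters' notes without a version), which corrects background, normalizes and summarises the probes, and none of this was redone. The paper describes RMA for its own comparison. A second deposited table of 4268 probe sets holds identical log2 values, was not tested apart, and includes 11 probe sets of the members. Of 24114 probe sets, 115 controls were left out and 23999 tested without a filter on level. The platform annotation gives 1 symbol to 10069 of these, several to 198 and none to 13732; probe sets with several were not used. All 64 members matched the RefSeq annotation of Sscrofa11.1 by Entrez identifier. The groups were compared in R 4.3.3 by linear models in limma 3.58.1, moderated with eBayes and a trend of variance on mean. P-values were adjusted after Benjamini and Hochberg over 23999 probe sets with a threshold of 0.05, and the procedure was tested on simulated data. Correlations are Pearson's r and Spearman's rho over 19 pigs, given as description without a p. Lists of other genes used the brightest probe set of each gene, and summed levels are log2 of the sum of linear signals.

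The members, gene lists and tests were chosen with earlier results of these data known. Named genes are the 3 members per complex with the smallest unadjusted p, all SDH genes and CYCS, tissue isoforms and NDUFA4, the 3 members at either end of mean correlation and of SD, and up to 3 genes per list by p. Alternatives were the trend, robust variance, centring, quantile normalization, array weights, the 3' minus 5' signal as covariate, a filter on level, the choice of probe set, subunits only, and leaving out pigs. The counts of genes higher in LD HIGH, the repeats of the components and the repeats without LD HIGH replicates 4 and 10 and LD LOW replicate 1 were added after seeing the data. The methods name laboratories, batches of fattening and half-sib families in the population, and the labels assign none of these to pigs, so none was tested. Precision is limited by the number of arrays.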

Additional observations from a re-analysis of the deposited data

Results flagged for a closer look

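The 100 groups of values examined share pigs and genes, so the count of flags is a description and cannot be set against chance. In 10 of them, a single pig stood farther from the rest of its group than Dixon's 95% criterion allows, where chance flags about 1 in 20. Of these, 5 belong to LD HIGH replicate 10: SDHB (11.9, against 12.6 ± 0.099, SD, in the other 9 pigs), UQCR10 (12.2, against 12.8 ± 0.088), NDUFS3 (10.7, against 11.4 ± 0.12), the complex I score (-0.35, against 0.031 ± 0.078) and the complex V score (-0.27, against 0.0024 ± 0.044). This pig had the lowest signal of all 19 for 16 of the 64 genes, and LD LOW replicate 1 for 14. The array of replicate 10 had a 3' minus 5' signal of 1.20, the highest of LD HIGH, and an array median of 3.503.

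The other values belong to different pigs. NDUFAF2 was at 4.60 in LD LOW replicate 7, against 5.49 ± 0.21 (SD) in the other 8 pigs. PPRC1 was at 7.06 in LD HIGH replicate 3, against 5.76 ± 0.33 in 9 pigs. MRPL4 was at 7.51 in LD HIGH replicate 9, against 6.75 ± 0.24. The 3' minus 5' signal was 1.61 in LD LOW replicate 1, against 1.003 ± 0.15 in 8 pigs, and the array median 3.59 in LD HIGH replicate 4, against 3.47 ± 0.030 in 9.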

How the results depend on the processing

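The count of genes past the adjusted threshold was 0 in all 27 alternatives run with limma, those that left out 1 pig included. The count at an unadjusted limma p under 0.05 was 3 under most settings, 4 over all 81 probe sets and 1 to 6 without 1 pig. With array weights, which ran from 0.14 (LD HIGH replicate 4) to 2.48 (LD LOW replicate 2), it was 13. The share over all probe sets was not counted with these weights, so the 13 cannot be set against it. The cause of this higher count was not tested. The mean correlation between genes was 0.318, with a jackknife SE of 0.054. It fell to 0.259 without the 2 pigs farthest from the median score (LD HIGH replicate 10 and LD LOW replicate 9), a setting that removes pigs from an end of the range, was 0.292 to 0.342 without 1 pig, and lay between 0.288 and 0.358 under the others. Median differences between the groups changed sign without some pigs, except in complexes IV and V. Without 1 pig they ran from -0.046 to 0.023 over all genes, -0.077 to 0.011 in complex I, -0.046 to 0.080 in complex II, -0.053 to 0.033 in complex III, 0.015 to 0.094 in complex IV and -0.079 to -0.010 in complex V. The median of complex II was -0.0037 after quantile normalization, and that of all genes 0.0041 with the mean over all probe sets of a gene. Genes with a higher mean in LD HIGH numbered 21 to 40 without 1 pig, 31 without the 3 doubted pigs and 38 with array weights. No paired analysis was possible because the groups hold different pigs and the replicate numbers, given in order within each group, pair none of them. Signals are relative to each array, so a shift of all genes would not show.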
